A study of Homo sapiens with 8 samples.

Results

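CRTC1, CRTC2 and CRTC3 encode the CREB-regulated transcription coactivators, and RAP2A, RAP2B and RAP2C encode the RAP2 branch of the Ras-related small GTPases. The sites at which the RNA-binding protein IGF2BP1 was crosslinked to the transcripts of these 6 genes were collected from peak lists of cells given AVJ16, a small-molecule inhibitor of IGF2BP1, and of cells given its solvent DMSO. A peak was taken when it lay within 1 of the 6 genes, as annotated in GENCODE release 44, on the same strand. This gave 33 of the 22311 peaks of the DMSO list and 34 of the 22123 peaks of the AVJ16 list. The families were selected on the measured difference between AVJ16 and DMSO, since CRTC3 and RAP2A each hold a peak whose enrichment was far lower with AVJ16. The differences at their peaks are therefore given as a description and support no statement about these genes.

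IGF2BP1 is a cytoplasmic protein with RNA recognition motifs and KH domains that binds many mRNAs, mostly in the 3’UTR, and is known to protect bound transcripts from decay. It is an oncofetal protein, high in embryonic tissue and again in many tumors. CRTC proteins bind the transcription factor CREB and switch on its target genes. When phosphorylated by salt-inducible kinases (SIKs) they are held in the cytoplasm by 14-3-3 proteins, and the phosphatase calcineurin releases them. In lung cancers that have lost the kinase LKB1, this brake is lifted and CRTC proteins are active in the nucleus. RAP2 proteins cycle between a GDP-bound and a GTP-bound form and act on the cytoskeleton and cell adhesion through the kinases TNIK, MINK1 and MAP4K4.

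H1299, a human non-small cell lung carcinoma line, was grown for 24 h with AVJ16 at 1.5 µM or with DMSO at 0.01%, and the cells then received 400 mJ/cm2 of UV light at 254 nm, which links proteins to the RNA they touch. In eCLIP, RNA pulled down with an antibody (IP) is sequenced beside a size-matched input (SMInput) that skips the pulldown. For either treatment 2 IP and 2 SMInput libraries were made, 8 samples in all, from a single cell line with no genetic change. The deposited data are 1 peak list per treatment in which both replicates are already combined.

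Each peak carries a log2 fold enrichment of IP over the paired SMInput and a −log10 p-value, both computed by the authors. The lists hold neither read counts nor a value per replicate. The depth is therefore unknown, no value below has an error between replicates, and no difference between the treatments could be tested. No listed peak is below 3 on the log2 scale of enrichment, equal to 8-fold, or below 3 in −log10 p. A stretch of RNA without a peak can thus hold any level under these limits. Because the SMInput was sequenced alongside, enrichment is meant to be relative to the amount of each RNA, but fewer transcripts and less binding per transcript were not separated by an independent measurement here. Positions are given on GRCh38, and distances along the 3’UTR count from 1 at the first base after the stop codon of the canonical transcript.

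The RNA letters at the sites on which the comparison turns are shown first, as 30 nt centred on the bases that the peaks of both lists cover. Capitals mark a match to any of the 9 motifs searched, which are named further on. In CRTC3 and RAP2A these are the peaks with the largest difference downward and upward between the treatments.
CRTC3, largest difference downward, chr15:90645119-90645148, plus strand: uuggcucuucugAUUUAugcacagaugguu
CRTC3, largest difference upward, chr15:90644090-90644119, plus strand: aucuuugcuguggaauugggaaaucaaacc
RAP2A, largest difference downward, chr13:97464644-97464673, plus strand: cucagucuccuuuaugcaucugcaacuuua
RAP2A, largest difference upward, chr13:97465952-97465981, plus strand: ucacagucuugugcaaguaaccucuggucu
Of these 4 stretches, the first holds a searched motif, AUUUA, and the other 3 hold none. For the paralogs of RAP2A, the peak with the highest AVJ16 enrichment is shown. In RAP2C it lies within the peak with the highest DMSO enrichment too and is 25 nt long. In RAP2B it overlaps adjoining DMSO peaks, and the stretch is centred on the bases shared with the downstream one alone.
RAP2B, chr3:153164362-153164391, plus strand: cccaaaccacuucCCAGUUuccuuucagua
RAP2C, chrX:132205353-132205377, minus strand: caguccuuuuauagcuuucuaaguu
CRTC2 held a single peak, which is shown whole.
CRTC2, chr1:153948495-153948520, minus strand: ucaaccaccagaacuugacccacugu

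Within each family, 1 gene held most of the peaks. CRTC3 had 14 peaks with DMSO and 15 with AVJ16, and RAP2A had 11 and 12. CRTC1 had 2 and 3, CRTC2 had 1 and 0, RAP2B had 2 and 1, and RAP2C had 3 in either list. A gene with any peak held a median of 3 peaks in both lists, and by number of peaks CRTC3 ranked 237 of 5237 genes with DMSO and 262 of 4717 with AVJ16, while RAP2A ranked 382 and 391. Of the peaks in these 6 genes, 27 with DMSO and 28 with AVJ16 overlapped a 3’UTR without overlapping coding sequence, against 74.6% and 75.0% of all peaks in the lists. A further 4 and 3 lay in coding sequence (CDS), and 2 and 3 in introns. No peak lay on the opposite strand within any of the 6 genes, and none fell where an annotated gene such as CRTC3-AS1 or RAP2C-AS1 overlaps them.

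**Figure D1:**
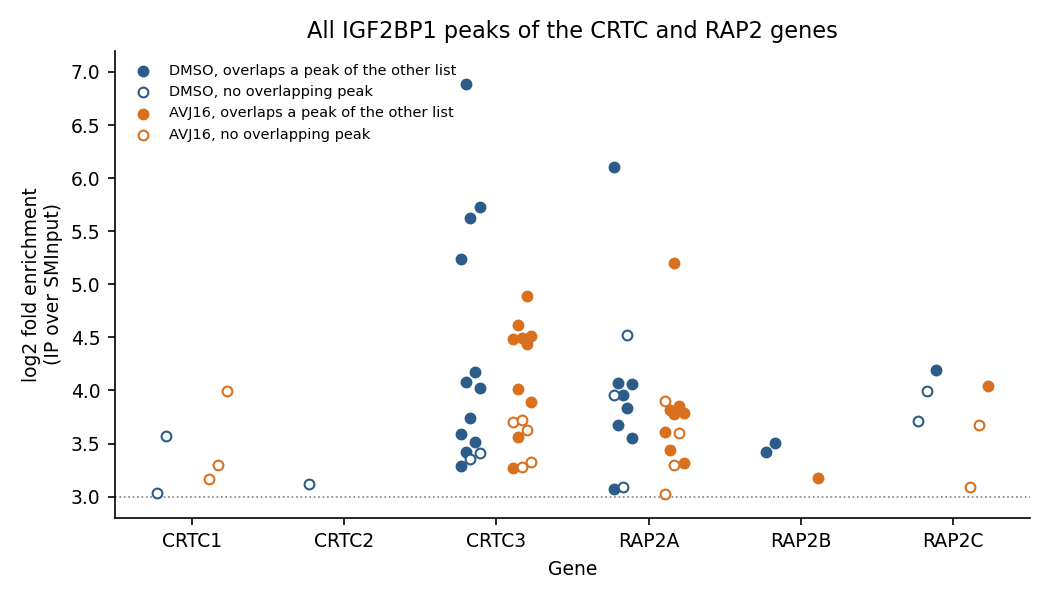
Every IGF2BP1 peak of the 6 genes, with the gene on the x axis and the log2 fold enrichment of IP over SMInput on the y axis, for DMSO (blue) and AVJ16 (orange). Filled points overlap a peak of the other list by at least 1 nt, open points do not, and the dotted line is the lowest value a listed peak can have. The 5 DMSO peaks above 5 lie in CRTC3 (4) and RAP2A (1), and the single AVJ16 peak above 5 lies in RAP2A.

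The peaks of these genes had slightly higher medians than the lists as a whole, and CRTC3 and RAP2A held some of the strongest DMSO peaks. The median log2 fold enrichment was 3.74 over the 33 DMSO peaks, against 3.63 for the list, and 3.71 over the 34 AVJ16 peaks, against 3.61. A level of at least 6 was reached by 0.350% of all DMSO peaks, among them 1 of CRTC3 and 1 of RAP2A. With AVJ16 it was reached by 0.190% of all peaks, none of them in these genes. Those DMSO peaks are the ones the genes were chosen for, and a large fall between listed peaks requires a high DMSO level. The medians include them, so neither these levels nor the medians are read against the lists. Of the 33 DMSO peaks, 23 overlapped an AVJ16 peak by at least 1 nt, beside 66.2% of the whole list. Of the 34 AVJ16 peaks, 20 overlapped a DMSO peak, beside 70.8% of the list. The DMSO peaks with a partner had a median log2 fold enrichment of 3.96 and those without of 3.49, and with AVJ16 the medians were 3.88 and 3.46. The same order was seen over the whole lists, where they were 3.80 and 3.37 with DMSO, and 3.73 and 3.35 with AVJ16.

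CRTC3 (ENSG00000140577, chromosome 15, 90529923 to 90645345, plus strand) has 15 exons and a 3’UTR of 3205 nt. IGF2BP1 peaks covered 26.5% of this 3’UTR with DMSO and 28.9% with AVJ16, and of the bases of the gene covered in either list 53.7% were covered in both. The strongest signal lay near the 3’ end, in a site of 351 nt from 2698 to 3048 nt after the stop codon, which ends 157 nt before the end of the transcript. It was made of 4 adjoining DMSO peaks and 3 AVJ16 peaks. The last of the DMSO peaks, from 2936 to 3048 nt, was enriched by 6.88 on the log2 scale with a −log10 p of 31.4, the fifth highest of the 22311 in the list. The AVJ16 peak inside it, from 2953 to 3035 nt, had 4.52 with a −log10 p of 18.9. The difference of −2.37, a 5.16-fold lower enrichment, ranked 2 from the lowest among all 14759 shared DMSO peaks, which ranged from −2.38 to 2.33.

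The other 3 DMSO peaks of the site were also lower with AVJ16, by less. From 2701 to 2778 nt the log2 enrichments were 5.73 (DMSO) and 4.89 (AVJ16), and from 2779 to 2863 nt they were 5.62 and 4.49. The peak between 2864 and 2935 nt, at 5.23 with DMSO, shared just 8 nt (11.1% of its length) with that same AVJ16 peak at 4.49, so that most of it had no listed counterpart. These 4 peaks ranked 174, 232, 616 and 5 in the DMSO list, counted from the highest, in order along the transcript. Averaged over the bases that both lists cover, the site went from 6.06 with DMSO to 4.62 with AVJ16, a difference of −1.44. With AVJ16 the 3 peaks of the site lay between 4.49 and 4.89, close to the strongest AVJ16 peaks further upstream at 4.44 to 4.61.

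Further upstream in the CRTC3 3’UTR the difference ran the other way at 3 peaks. A peak from 1943 to 1992 nt had 3.28 with DMSO and 4.61 with AVJ16, a difference of 1.33 or 2.51-fold, over an overlap of 44 nt. A peak from 609 to 660 nt had 3.51 and 4.49, a difference of 0.98. Another, from 2233 to 2327 nt, had 3.74 and 4.44, a difference of 0.70. These DMSO peaks were all among the weaker ones, and with AVJ16 they reached about the level of the 3’ end.

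A further 3 peaks of the CRTC3 3’UTR differed by less than 0.5 on the log2 scale. They lay from 190 to 241 nt (4.02 with DMSO and 3.56 with AVJ16), from 1993 to 2127 nt (4.08 and 3.90) and from 2159 to 2218 nt (4.17 and 4.01). The peak at 1993 nt, with a difference of −0.19, adjoins the one with the largest upward difference. The upward difference thus did not extend over the whole of that bound stretch. In exon 11, 2 adjoining DMSO peaks from 90629290 to 90629529 had 3.59 and 3.42, and the single AVJ16 peak over them had 3.27. These coding peaks had −log10 p values of 35.3 and 6.89 with DMSO and 33.3 with AVJ16.

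The remaining CRTC3 peaks stood in 1 list alone, and all were below 4 on the log2 scale. With DMSO these were a peak in the coding part of exon 12 (90638448 to 90638513) at 3.41 and a 3’UTR peak from 1482 to 1539 nt at 3.36. With AVJ16 there were 5, of which 2 lay in coding sequence, in exon 3 (90593660 to 90593703) at 3.28 and in exon 12 (90638625 to 90638647) at 3.72. The other 3 lay in the 3’UTR, from 686 to 733 nt at 3.32, from 1236 to 1326 nt at 3.70 and from 1856 to 1929 nt at 3.63. Their absence from the other list says that they did not pass its limits, and not that binding was absent.

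**Figure D2:**
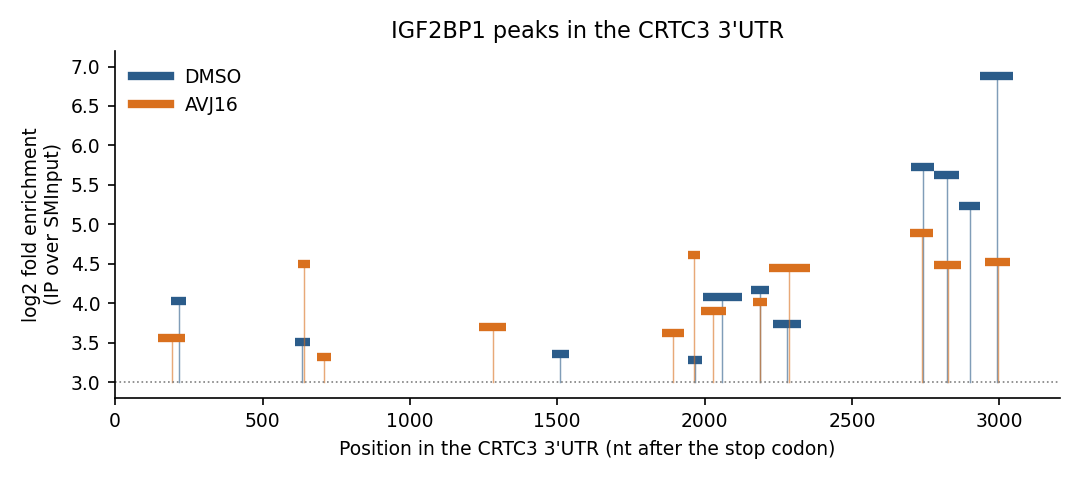
IGF2BP1 peaks along the CRTC3 3’UTR, with the distance after the stop codon in nt on the x axis and the log2 fold enrichment of IP over SMInput on the y axis. Each bar spans a peak of the DMSO list (blue) or AVJ16 list (orange), thin lines mark peak centres, and the dotted line is the lowest listed value. The 4 DMSO peaks from 2701 nt on stand between 5.23 and 6.88 and the AVJ16 peaks there between 4.49 and 4.89.

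RAP2A (ENSG00000125249, chromosome 13, 97434169 to 97469128, plus strand) has 2 exons and a 3’UTR of 4686 nt, in which all of its peaks lay. They covered 17.7% of the 3’UTR with DMSO and 20.5% with AVJ16, and 47.9% of the bases covered in either list were covered in both. Here the strongest DMSO peak was the one nearest the coding sequence, in contrast to CRTC3. It reached from 168 to 256 nt after the stop codon, at 6.11 on the log2 scale (−log10 p of 29.9), rank 55 in the list. The AVJ16 peak from 178 to 256 nt had 3.81 with a −log10 p of 17.2. The difference of −2.30, or 4.91-fold, ranked 3 from the lowest among all shared DMSO peaks, next after that of CRTC3.

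Downstream of it the DMSO peaks formed a nearly unbroken run to 823 nt. The second peak, from 261 to 314 nt, had 4.52 with DMSO and no overlapping AVJ16 peak, the highest DMSO peak without a partner in these genes. The peak from 529 to 658 nt had 3.96 with DMSO and 3.31 with AVJ16, a difference of −0.64. The peaks from 319 to 394 nt (4.07 with DMSO and 3.78 with AVJ16), from 409 to 528 nt (3.67 and 3.44) and from 660 to 762 nt (3.55 and 3.61) differed by less than 0.5. At the end of the run, from 766 to 823 nt, the order turned, with 3.07 under DMSO and 3.85 under AVJ16.

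The most enriched AVJ16 peak of RAP2A was a different one. It lay from 1484 to 1570 nt, was at 5.20 on the log2 scale with a −log10 p of 16.7, and ranked 522 in the AVJ16 list. The DMSO peak inside it, from 1495 to 1555 nt, had 4.06 with a −log10 p of 12.1, so the difference was 1.14, or 2.20-fold. The strongest peak of RAP2A was thus the first after the stop codon with DMSO and a peak well downstream of it with AVJ16.

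In the distal part of the RAP2A 3’UTR a single site was found in both lists, from 3253 to 3331 nt with DMSO at 3.83 and from 3258 to 3373 nt with AVJ16 at 3.79. Peaks of DMSO alone lay from 2451 to 2470 nt at 3.95 and from 2517 to 2555 nt at 3.09. Peaks of AVJ16 alone lay from 934 to 1054 nt at 3.60, from 1372 to 1462 nt at 3.03, from 2771 to 2814 nt at 3.29 and from 2815 to 2859 nt at 3.90. None of the latter 4 reached 4 on the log2 scale.

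**Figure D3:**
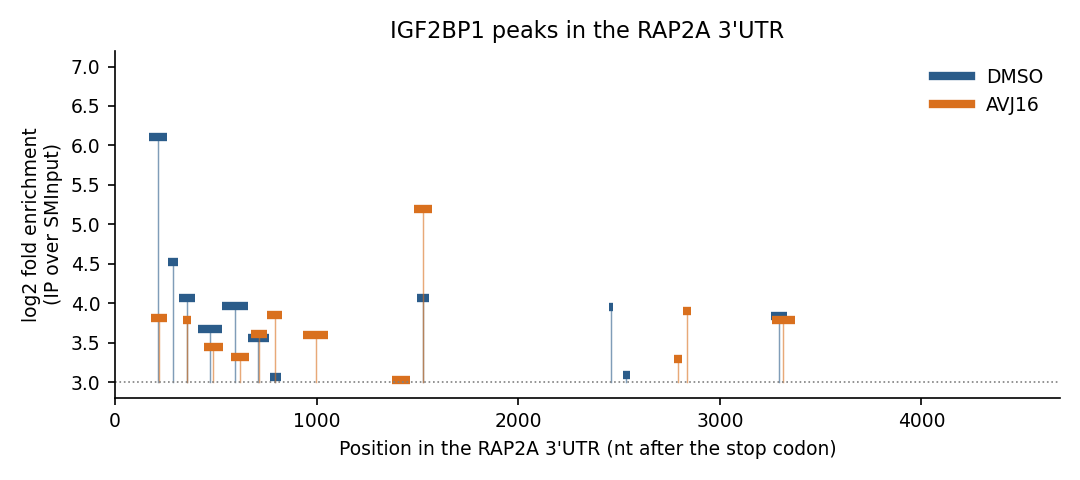
IGF2BP1 peaks along the RAP2A 3’UTR, with the distance after the stop codon in nt on the x axis and the log2 fold enrichment of IP over SMInput on the y axis. Bars span DMSO (blue) and AVJ16 (orange) peaks, thin lines mark their centres, and the dotted line is the lowest listed value. The highest DMSO bar, at 6.11, lies just after the stop codon above an AVJ16 bar at 3.81, and the highest AVJ16 bar, at 5.20, lies between 1484 and 1570 nt above a DMSO bar at 4.06.

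RAP2B and RAP2C, which encode close relatives of RAP2A, were bound at few places. RAP2B (ENSG00000181467, chromosome 3, 153162226 to 153170627, plus strand) has a single exon and a 3’UTR of 7382 nt, the longest of the 6, of which peaks covered 1.82% with DMSO and 1.11% with AVJ16. Its DMSO peaks adjoin each other, from 1030 to 1102 nt at 3.51 and from 1103 to 1163 nt at 3.42. The 1 AVJ16 peak, from 1079 to 1160 nt at 3.18, overlapped both, with differences of −0.33 and −0.24. Per kb of 3’UTR, RAP2A held 2.35 DMSO and 2.56 AVJ16 peaks, RAP2B held 0.271 and 0.135, and CRTC3 held 3.43 and 3.74.

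RAP2C (ENSG00000123728, X chromosome, 132203024 to 132219480, minus strand) has a 3’UTR of 2597 nt with all of its peaks in the first part. DMSO peaks lay from 93 to 217 nt at 4.00, from 233 to 275 nt at 4.19 and from 373 to 405 nt at 3.71. AVJ16 peaks lay from 47 to 75 nt at 3.09, from 245 to 269 nt at 4.04 and from 343 to 363 nt at 3.67. The number of peaks was the same, but just the middle DMSO peak had an overlapping counterpart, with a difference of −0.15, and 9.96% of the bases covered in either list were covered in both. The 3 AVJ16 peaks were 21 to 29 nt long and weakly supported, with −log10 p values of 4.60, 4.40 and 4.59 in the order along the transcript, against 13.4, 9.63 and 6.68 with DMSO.

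**Figure D4:**
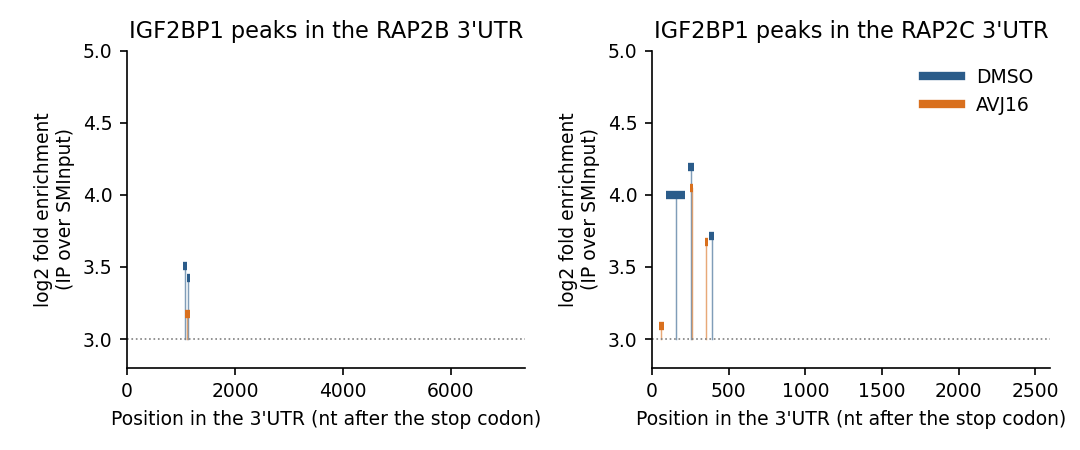
IGF2BP1 peaks along the 3’UTRs of RAP2B (left) and RAP2C (right), with the distance after the stop codon in nt on the x axes and the log2 fold enrichment of IP over SMInput on the y axes. Bars span DMSO (blue) and AVJ16 (orange) peaks, and the dotted lines mark the lowest listed value. Peaks of either gene lie in a small part of the 3’UTR, and none is above 4.19.

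CRTC1 and CRTC2, the paralogs of CRTC3, held no 3’UTR peak in either list with coding sequence ranked first, although the 3’UTR of CRTC1 is 4951 nt long and thus longer than that of CRTC3. That of CRTC2 is 434 nt. The CRTC1 peaks (ENSG00000105662, chromosome 19, 18683678 to 18782333, plus strand) all lay in introns. With DMSO they were in intron 1 (18738927 to 18739076) at 3.58 and in intron 11 (18772377 to 18772439) at 3.04. With AVJ16 they were in intron 1 (18741869 to 18741921) at 3.99, within 500 nt of an exon in intron 10 (18771144 to 18771188) at 3.30, and in intron 11 (18773376 to 18773429) at 3.16. No CRTC1 peak of 1 list overlapped a peak of the other, even where both lists had a peak in the same intron. In CRTC2 (ENSG00000160741, chromosome 1, 153947669 to 153958615, minus strand) the sole peak lay in the coding sequence of exon 13, at 3.12 on the log2 scale under DMSO, with a −log10 p of 7.91, and it counted as a 3’UTR peak of another isoform when the 3’UTR was ranked first.

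The 23 shared DMSO peaks of these genes held differences in both directions. A difference beyond 0.5 on the log2 scale was counted as lower or higher. With AVJ16, 6 were lower, 5 were higher and 12 differed by less. Among all 14759 shared DMSO peaks, 20.1% were lower, 12.6% were higher and 67.3% differed by less, but the differences of CRTC3 and RAP2A were what these genes were chosen for, so their counts are not read against these shares. Beyond 1 on the log2 scale, 3 of the 23 were lower and 2 higher, and over all shared peaks 5.28% and 2.82%. All 5 lay in CRTC3 and RAP2A, so these counts are not read against the shares either. The median difference was −0.23 over the 23 peaks, which ranged from −2.37 to 1.33, and −0.06 over all. In CRTC3 4 were lower and 3 higher with a median of −0.25, and in RAP2A 2 were lower and 2 higher with a median of −0.14. The values of RAP2B and RAP2C played no part in the choice. The 2 shared DMSO peaks of RAP2B, both set against the same AVJ16 peak, differed by −0.33 and −0.24, and the 1 of RAP2C by −0.15. All are within 0.5, and since the median over all shared peaks is below 0 as well, their sign is not read as a result.

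**Figure D5:**
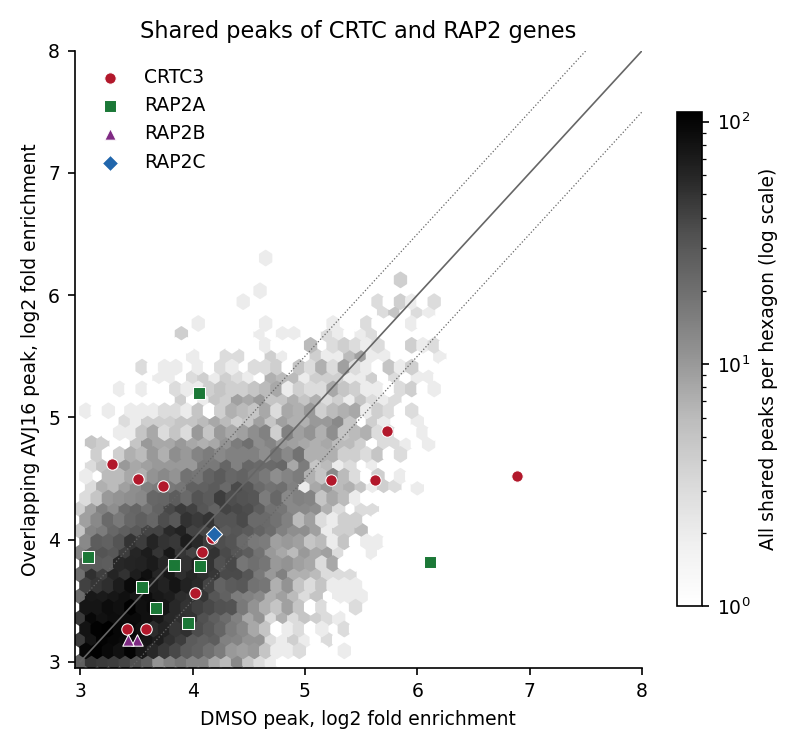
Shared peaks, with the log2 fold enrichment of the DMSO peak on the x axis and of the AVJ16 peak that overlaps it most on the y axis. Grey hexagons give the number of all 14759 shared DMSO peaks on a log color scale, colored symbols are the 23 peaks of the genes described, the solid line is equality and dotted lines lie 0.5 above and below it. A CRTC3 point at 6.88 and a RAP2A point at 6.11 lie furthest below the line.

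The size and direction of the difference went with the level of the peak over the whole lists, which bears on the strongest peaks here. Of the 978 shared DMSO peaks at 5 or more, 558 were lower with AVJ16 and 27 were higher, with a median of −0.64. At 6 or more, 53 of 77 were lower and 1 was higher, with a median of −0.78. When the peaks were taken by their AVJ16 level instead, the order turned, and of 783 at 5 or more 329 were higher with AVJ16 and 59 were lower, with a median of 0.36. The DMSO peaks from 3 to 3.5 had 0 lower and 960 higher of 4439, since a peak there cannot be lower by 0.5 and still be listed. As a description, 21 of the 978 DMSO peaks at 5 or more (2.15%) and 6 of the 77 at 6 or more (7.79%) were lower by over 2, those of CRTC3 and RAP2A included, which were chosen for this. The part that selection by level plays in the differences of CRTC3 and RAP2A was not tested.

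CRTC3 and RAP2A each held lower and higher peaks in the same 3’UTR. Of the 2519 genes with at least 2 shared peaks, 23.3% had a lower and a higher peak beyond 0.5, and 3.37% had both beyond 1. The shares were higher among the 520 genes with at least 8 shared peaks, the number in RAP2A, where 58.3% did so beyond 0.5 and 12.3% beyond 1. The span from the lowest to the highest difference was 3.70 in CRTC3, rank 2 of 2519, and 3.43 in RAP2A, rank 5, while in RAP2B it was 0.085. CRTC3 and RAP2A were near each other in this pattern, at a distance of 0.205 in the plane of lowest and highest difference. Among all other genes, RAP2A was the closest to CRTC3, followed by KLHL29 (lowest −2.02 and highest 1.18 over 2 shared peaks) and AKT1S1 (−2.02 and 1.50 over 8). For RAP2A the closest was ATP6V1A (−2.26 and 0.95 over 12 shared peaks, at a distance of 0.188), followed by CRTC3 and KLHL29. The likeness is in these extreme values alone, and CRTC3 and RAP2A were picked for one of them.

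When touching and overlapping peaks of both lists were joined into sites, the 6 genes held 36, of which 13 were in both lists, 10 in DMSO alone and 13 in AVJ16 alone. Over the whole series 43.5% of 21385 sites were in both lists, 30.8% in DMSO alone and 25.7% in AVJ16 alone. CRTC3 held 13 sites, with 6 in both lists, and RAP2A held 11, with 5 in both. Averaged over the bases in both lists, 2 sites were lower with AVJ16, the CRTC3 3’ end at −1.44 and the first RAP2A site at −2.30, and 2 were higher, the CRTC3 site from 609 to 661 nt at 0.98 and the RAP2A site from 1484 to 1570 nt at 1.14. The CRTC3 site with the largest upward peak difference, from 1942 to 2127 nt, differed by 0.36 as a whole, because it also holds the peak whose enrichment was about the same.

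The peaks were searched on the transcribed strand for 9 motifs, where N stands for any base. The study named 5 of them as enriched in its peaks, namely UUUCCGAA, the shorter UCCAG and CCNGUU, and the longer GNGGCCC and UCCUNNUGG. The others were GGAC, a common form of the m6A site, the CA-rich element ACACA, the AU-rich core AUUUA and the polyadenylation signal AAUAAA. No motif lies within another, but UCCAG and CCNGUU can overlap. In the 27 DMSO 3’UTR peaks of these genes CCNGUU was found in 5 (7.31% of all 16653 DMSO 3’UTR peaks hold it), UCCAG in 3 (10.4%), GGAC in 2 (14.9%), AUUUA in 2 (11.9%) and ACACA in 1 (9.57%). The other 4 were in none, and as exact letters they are rare in all DMSO 3’UTR peaks too. Of those peaks, 0.030% hold UUUCCGAA, 0.75% UCCUNNUGG, 1.2% GNGGCCC and 4.81% AAUAAA, so their absence here says nothing about these genes. The study's motifs came from its HOMER analysis, which reports its first-ranked motif in a far larger share of targets. The exact matches counted here are an unlike measure and are not set against it. In the 28 AVJ16 peaks CCNGUU was found in 4 (6.73% of all 16594), UCCAG in 3 (9.83%), ACACA in 2 (8.91%), AUUUA in 2 (9.32%) and GGAC in 1 (14.4%).

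The strongest peaks of CRTC3 and RAP2A did not share these letters. The CRTC3 peak from 2936 to 3048 nt held the UCCAG and the CCNGUU motif as well as GGAC and the AU-rich AUUUA, more than any other 3’UTR peak of the 6 genes, and the RAP2A peak from 168 to 256 nt held none of the 9. RAP2A peaks held a motif in 1 of 11 with DMSO (ACACA) and 0 of 12 with AVJ16. The share of all 3’UTR peaks that hold any of the 9 was not counted, so this is not read as a trait of RAP2A. The strongest DMSO peaks of CRTC3 and RAP2A also differed in length, at 113 and 89 nt. Peak composition differed between the genes too, with a median GC content of 46.7% in the 11 DMSO 3’UTR peaks of CRTC3, 40.0% in the 11 of RAP2A and 27.3% in the 3 of RAP2C, against 40.3% in all DMSO 3’UTR peaks.

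Among 30 genes that act with CRTC proteins (kinases, phosphatase, 14-3-3 proteins, CREB family and targets), 16 had a peak with DMSO and 17 with AVJ16, beside 25.2% and 22.6% of all protein-coding genes. With a peak of at least 4 on the log2 scale it was 11 in either list, beside 11.6% and 9.93%. These 16 were bound in both lists and ATF1, a CREB relative, was added with AVJ16 by a single peak at 3.36. All 6 genes for 14-3-3 proteins on the list (YWHAB, YWHAE, YWHAG, YWHAH, YWHAQ and YWHAZ) held peaks in both lists. CREB1 and CREM, the CREB targets NR4A1, NR4A2, NR4A3, PPARGC1A and FOS, and STK11, which encodes LKB1, had none in either. Of the 92 shared DMSO peaks of the 30 genes, 13 were lower with AVJ16 and 10 higher, beside 20.1% and 12.6% of all shared peaks. Their median difference was 0.03. Many of the 92 lay in PRKAR2A, with 20, and in the genes for 14-3-3 proteins, with 6 to 10 each. The counts thus rest largely on part of the list.

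The kinases and the phosphatase that set CRTC phosphorylation varied. SIK1 had no peak, SIK3 had a peak in either list that did not overlap (3.45 with DMSO and 3.04 with AVJ16), and SIK2 had 6 with DMSO and 5 with AVJ16, of which 2 were shared, with differences of 0.36 and 0.49. PPP3CA, a catalytic subunit of calcineurin, had 6 and 4 peaks, with 3 shared and differences from −0.30 to 0.52. PPP3CB and PPP3CC, which encode other catalytic subunits, had no peak in either list. The paper, however, names PPP3CB among the WNT pathway genes whose IGF2BP1 binding was reduced by AVJ16. It drew its differential peaks from all called clusters, so the lack of a listed peak here does not speak against that. PRKAR2A, a regulatory subunit of protein kinase A, held the most peaks of the list, 21 and 23, with 20 shared. Of these, 5 were lower and 3 higher. Its largest downward difference was at a 3’UTR peak on chromosome 3 from 48747245 to 48747281, with 5.45 under DMSO and 4.08 under AVJ16. The largest upward one, at the adjoining peak from 48747071 to 48747244 with 4.38 under DMSO, rests on the choice of partner, since 4 AVJ16 peaks overlap it, at 3.68, 5.41 (the one sharing most bases), 5.55 and 4.08.

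Among 30 genes of RAP GTPase signaling, 10 had a peak with DMSO and 7 with AVJ16, beside 25.2% and 22.6% of all protein-coding genes, and all 7 were among the 10. A peak of at least 4 on the log2 scale was held by 3 with DMSO and 2 with AVJ16, beside 11.6% and 9.93%. They held 29 and 16 peaks. The 3 without a peak under AVJ16 were TNIK, a RAP2 effector kinase, and SIPA1L1 and SIPA1L2, which encode GTPase-activating proteins of RAP. TNIK had 4 DMSO peaks, all in the 3’UTR, at 3.64, 3.03, 3.23 and 3.74, all below 4 on the log2 scale. MAP4K4, another RAP2 effector kinase, had 2 peaks with DMSO and 3 with AVJ16, with 1 shared at 3.89 and 3.40, and MINK1 had none.

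Of the 11 shared DMSO peaks of these RAP genes 6 were lower with AVJ16 and 0 higher, beside 20.1% and 12.6% of all shared peaks, with a median of −0.54, but 8 of the 11 lay in NEDD4, so the count rests mainly on 1 gene. NEDD4, a ubiquitin ligase known to act on RAP2 together with TNIK, had 8 and 7 peaks in its 3’UTR, of which 5 of 8 shared DMSO peaks were lower. The differences ranged from −1.39 to 0.14. Its largest downward difference, from 55828121 to 55828183 on chromosome 15, was from 4.52 with DMSO to 3.13 with AVJ16. RAP1B, a close relative of the RAP2 genes, had a single 3’UTR peak at 4.97 with DMSO and 4.30 with AVJ16. RAP1A had 3 and 2 peaks, of which the shared one had 3.73 and 4.11. Its strongest DMSO peak, at 4.74, had no overlapping AVJ16 peak. RALGDS, an effector of Ras-family GTPases, had 6 intron peaks with DMSO and a single 3’UTR peak with AVJ16.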

How the data were processed

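IGF2BP1 eCLIP of H1299 cells was analysed, with samples grouped by the labelled treatment, DMSO or AVJ16. The authors used cutadapt for adapters, set aside reads of repeats, aligned the rest with STAR, dropped PCR duplicates, ran CLIPper to find peaks and counted IP against SMInput reads per peak. Their tool versions were not given in the sources used here. The build, hg38, comes from the submitters' processing notes, and 0 peaks lay beyond a chromosome end of the reference. The −log10 p of each peak, limited to 400, and its log2 fold enrichment of IP over SMInput were deposited as the authors computed them, each list normalized separately and with replicates combined. The depth per sample is unknown and no test, SD or interval was made.

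Genes, transcripts and regions were taken from GENCODE release 44, whereas the study's methods name an older release. Where a peak overlapped several regions on its strand, CDS came before 3’UTR, then 5’UTR, then exons of noncoding genes, then introns up to 500 nt from an exon (proximal), then the rest of introns (distal), with preference to protein-coding genes. For every DMSO peak the partner was the AVJ16 peak sharing most bases (bedtools 2.31.1, at least 1 nt), and an AVJ16 peak could serve several DMSO peaks. The enrichments were subtracted as AVJ16 minus DMSO, with a limit of 0.5, a size that the study also used. The study applied it to read counts over the same cluster in all samples, after a two-way ANOVA. Here it was applied without a test to peaks of different extent, so the counts are not comparable with the study's differentially bound peaks. Pairing was tested on simulated data, made of isolated peaks and a slightly shifted copy of each. Adjoining peaks, shared partners and several candidate partners were not part of that test. Sequences were read from the reference genome. Python 3.11.15, pandas 2.3.3, numpy 2.4.6, scipy 1.17.1, pysam 0.24.0 and matplotlib 3.10.9 were used.

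The genes, both lists of 30 pathway genes and the rules were chosen with earlier results of these data known. The genes named are the 6 described, pathway genes with a peak (those without one are named in counts), and for CRTC3 and RAP2A the 3 genes nearest in their lowest and highest difference. Alternatives were higher thresholds, joined peaks, other region orders, other pairings, centring and wider motif windows.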

Additional observations from a re-analysis of the deposited data

How the results depend on the processing

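No paired analysis was possible because the deposited lists combine the replicates, and for the same reason no replicate could be left out. Raising the limit to a log2 fold enrichment of 4 left 12 DMSO and 9 AVJ16 peaks in the 6 genes, 7 shared DMSO peaks, 11 CREB and CRTC pathway genes bound with AVJ16, and 3 RAP pathway genes bound with DMSO and 2 with AVJ16 (beside 11.6% and 9.93% of protein-coding genes). Averaging over sites in place of peaks left 2 lower and 2 higher with a median of −0.15, and turned the median of CRTC3 from −0.25 to 0.027. There the 12 shared DMSO peaks became 6 sites in both lists. The 4 DMSO peaks at the 3’ end, all lower, counted as 1 site at −1.44, and the 2 in exon 11 as 1 site at −0.30. The sites from 1942 to 2127 nt and from 2159 to 2359 nt, each of 2 DMSO peaks, stood at 0.36 and 0.41. The median over the shared peaks was −0.21 with an overlap of at least 50% of both peaks, with pairing from the AVJ16 list and with each peak used once, −0.17 when centred on all shared peaks and −0.24 with a −log10 p of at least 5. A limit of 1 left 85 genes with opposed peaks, CRTC3 and RAP2A among them. A −log10 p of at least 5 left RAP2C with 0 AVJ16 peaks. Giving the 3’UTR precedence over the CDS gave 31 DMSO and 30 AVJ16 peaks in the 3’UTR, so that all 4 DMSO coding peaks, the sole CRTC2 peak among them, then counted as 3’UTR of other isoforms. The remaining 23 alternative values of the main counts stayed within 1.5 times. Of the values for single genes and motifs 55 were kept, 34 moved and 1, the CRTC3 median over sites, was reversed. Counts were held to 1.5 times, but differences were labelled as moved after small changes too. The lowest difference of CRTC3, for example, went from −2.37 to −2.31 when centred. The thresholds of the lists and the unknown depth limit every statement about a missing peak.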
